A study of Mus musculus with 9 samples.

Results

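DARPP-32 and its relatives are small phosphoproteins that carry cyclic AMP signals to protein phosphatases, and 5 of their genes were examined in the striatum of R6/2 mice: Ppp1r1b, Ppp1r1a, Arpp19, Ensa and Arpp21. The members were the probe sets (groups of short array probes read as 1 value) that the platform annotation assigns to exactly 1 gene with one of these symbols. There were 12 of them among the 45037 probe sets tested, with 1 for Ppp1r1b, 1 for Ppp1r1a, 3 for Arpp19, 2 for Ensa and 5 for Arpp21. The R6/2 group held 5 female mice (labelled R62_86, R62_95, R62_105, R62_107 and R62_109) that carry a transgene with exon 1 of human mutant huntingtin, driven by the human huntingtin promoter, and serve as a model of Huntington disease. The wild-type group held 4 female mice (labelled by the numbers 46, 47, 49 and 66), and both groups shared a mixed C57Bl/6 and CBA background. All mice were recorded as 12 weeks old, and in days mouse R62_86 and the wild-type mice were 85 days old, whereas the other R6/2 mice were 83 days old. Values of single mice are given in the order of these labels. Each mouse gave 1 array of striatum, and values are log2 expression, so that a difference of 1 is a doubling or a halving.

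DARPP-32, the product of Ppp1r1b, is phosphorylated by protein kinase A when dopamine D1 receptors raise cyclic AMP, and then inhibits protein phosphatase 1. Inhibitor-1, the product of Ppp1r1a, acts in the same way in many tissues. The products of Arpp19 and Ensa are close relatives of each other that inhibit protein phosphatase 2A once the Greatwall kinase has phosphorylated them, and protein kinase A phosphorylates them too. Arpp21 encodes a calmodulin-binding phosphoprotein of striatal neurons and, from longer transcripts, an RNA-binding protein with an R3H domain. DARPP-32 and the Arpp21 product are abundant in the spiny projection neurons, which make up most striatal neurons.

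Arpp21 spans chr9:112065091-112236288 on the minus strand of GRCm38.p6, and 87 transcripts are listed for it in RefSeq, 51 of them curated. Which of them each Arpp21 probe set reads was not analysed here. The gene also holds Mir128-2 on the same strand, and the mature microRNA at chr9:112118644-112118664 is shown because it is read from the same stretch of the genome (RefSeq, seed of bases 2 to 8 in capitals). The same mature sequence is encoded a further time on the plus strand at chr1:128202404-128202424, inside R3hdm1, a relative of Arpp21. MicroRNA levels were not analysed here.

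mmu-miR-128-3p: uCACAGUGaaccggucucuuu

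The promoter windows of Arpp19 and Ensa are shown since these relatives differed in direction, and 1 of the 3 Arpp21 windows with a cyclic AMP motif is shown beside them. Each holds 250 bases before to 50 bases after a RefSeq transcript start and is printed 5′ to 3′ on the gene's own strand. Capitals mark the letters TGACG or their reverse complement CGTCA, the half-site of the cyclic AMP response element. The windows lie at chr9:75037364-75037663 on the plus strand for Arpp19, at chr3:95624730-95625029 on the plus strand for Ensa and at chr9:112217302-112217601 on the minus strand for Arpp21.

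Arpp19: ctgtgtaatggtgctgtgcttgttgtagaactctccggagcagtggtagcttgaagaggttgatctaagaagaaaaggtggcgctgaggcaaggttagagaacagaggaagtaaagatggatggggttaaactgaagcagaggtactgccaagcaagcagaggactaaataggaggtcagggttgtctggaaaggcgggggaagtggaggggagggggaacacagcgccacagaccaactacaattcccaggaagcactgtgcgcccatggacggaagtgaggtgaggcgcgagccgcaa

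Ensa: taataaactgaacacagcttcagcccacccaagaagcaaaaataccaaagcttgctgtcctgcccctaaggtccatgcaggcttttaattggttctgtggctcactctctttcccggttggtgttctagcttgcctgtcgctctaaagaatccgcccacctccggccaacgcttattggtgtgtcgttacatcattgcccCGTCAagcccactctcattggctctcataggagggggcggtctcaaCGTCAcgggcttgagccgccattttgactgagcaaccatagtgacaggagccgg

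Arpp21: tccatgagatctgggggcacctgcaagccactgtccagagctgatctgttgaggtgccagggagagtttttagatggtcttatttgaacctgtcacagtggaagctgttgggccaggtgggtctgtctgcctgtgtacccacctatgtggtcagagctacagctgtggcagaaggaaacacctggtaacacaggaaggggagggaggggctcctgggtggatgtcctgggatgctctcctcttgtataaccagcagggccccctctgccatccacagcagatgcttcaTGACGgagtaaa

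The half-site was found 2 times in the 1 window of Ensa, in 0 of 2 windows of Arpp19 and in 3 of 9 windows of Arpp21. Some Arpp21 windows overlap each other, and the one shown holds the same site as another of these 3. Of 32851 promoter windows of the same length, 20.8% held it on either strand. The full element TGACGTCA, which contains the half-site on both strands, was in 1.79% of all windows and in 0 of the windows of these genes. Promoter windows of Ppp1r1b and Ppp1r1a were not analysed here. Whether the motif has a part in any difference between the genotypes was not tested.

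Ppp1r1b, Ppp1r1a and Arpp19 were lower in R6/2 mice on every one of their probe sets, Ensa was higher on 1 of 2, and the probe sets of Arpp21 divided. By limma with Benjamini-Hochberg adjustment over all probe sets and a threshold of 0.05, 7 of the 12 member probe sets were lower, 1 was higher and 4 did not pass. Of all probe sets, 10.4% passed, 4.57% as lower and 5.83% as higher. The lowest and the highest mouse of the groups did not overlap for 11 of the 12, against 13.4% of all probe sets. The 12 probe sets come from 5 genes and are not independent of each other. On the brightest probe set (highest mean over all arrays) of each gene, Ppp1r1b, Ppp1r1a, Arpp19 and Arpp21 fell and Ensa did not pass, while 13.7% of 18193 genes passed and 17.3% had groups that did not overlap. When these genes were ordered from the lowest log2 difference, Arpp19 ranked 21, Ppp1r1b 24, Arpp21 84 and Ppp1r1a 116.

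**Figure D1:**
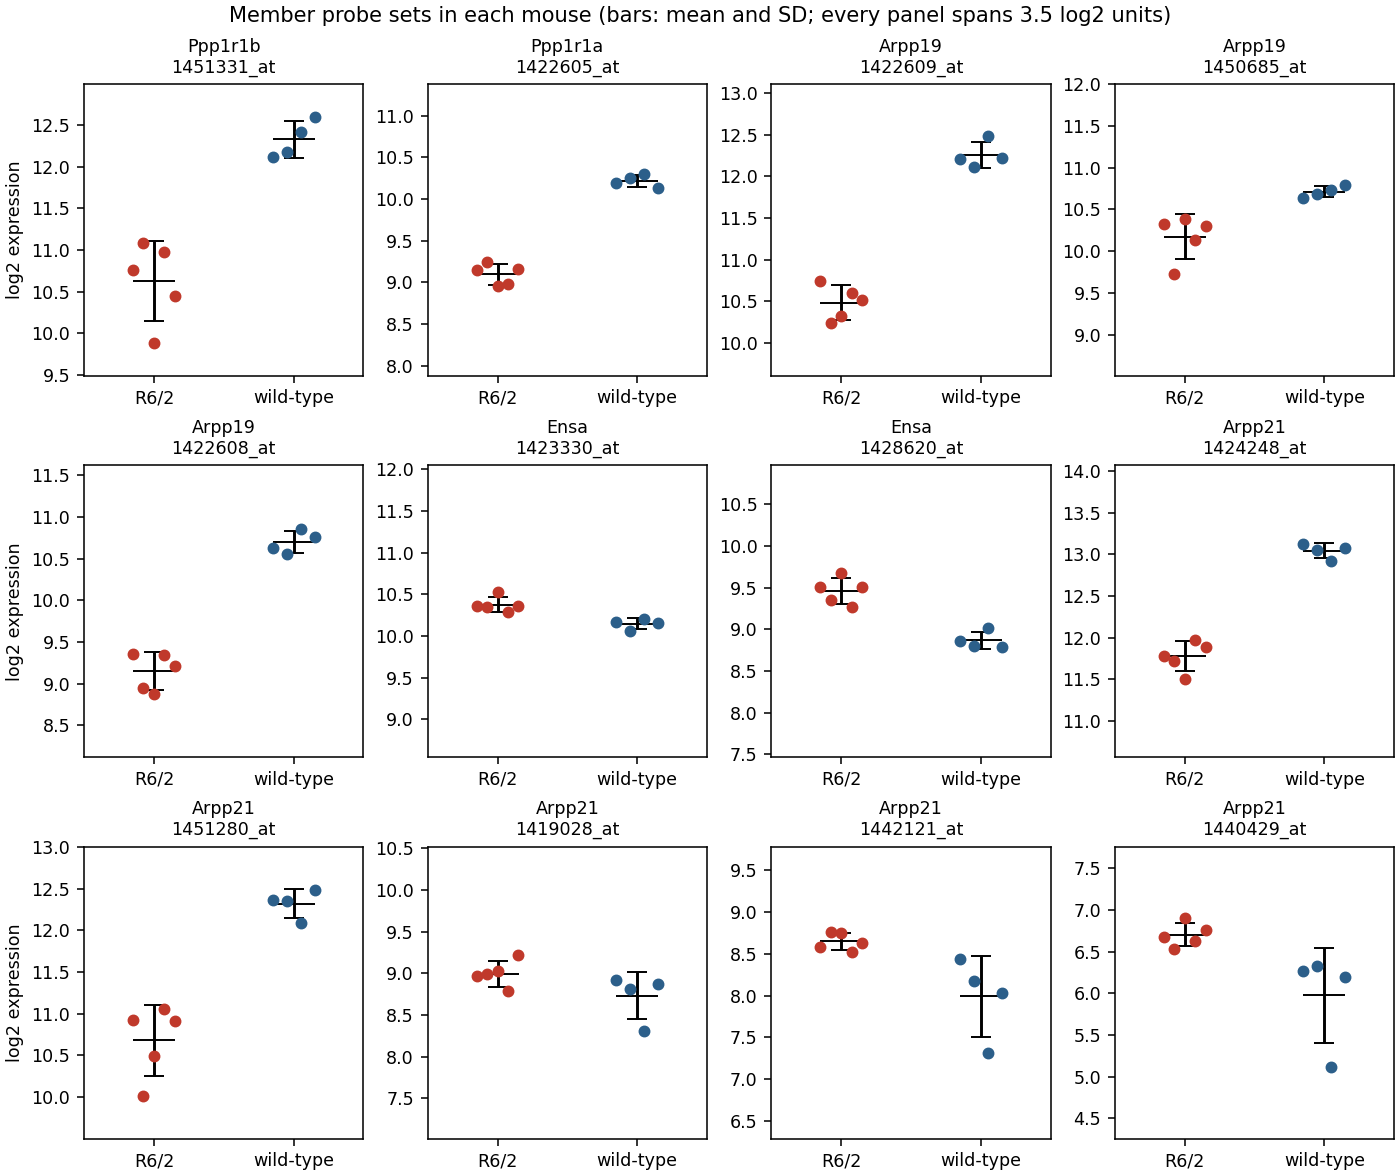
Log2 expression of the 12 member probe sets, with 1 point per mouse, R6/2 mice (n = 5) left of wild-type mice (n = 4) in each panel, and a horizontal line and bar for the mean and SD. The groups are apart in every panel except that of Arpp21 probe set 1419028_at, and wild-type mouse 49 is the lowest point in 3 Arpp21 panels.

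Of measured spiny neuron markers 13 of 13 fell, while 6.3% of all genes were lower and 7.36% higher. The mean log2 value of these 13 per mouse was 9.06 to 10.01 in R6/2 mice and 10.87 to 11.28 in wild-type mice. Separate lists held markers of the direct and indirect pathways of these neurons. For the direct pathway 3 of 5 fell, whereas Tac1 (-0.30, limma adjusted p 0.214) and Isl1 (-0.25, adjusted p 0.348) did not pass. For the indirect pathway 3 of 3 measured markers fell. In bulk tissue, fewer cells of a type and less RNA per cell cannot be told apart. Markers of neighbouring tissue also varied. The mean of 8 measured cortex projection neuron markers was 6.34 to 7.32 in R6/2 mice and 5.39 to 6.51 in wild-type mice, and 3 of the 8 rose. The mean of 8 choroid plexus markers was 5.45 to 7.12 in R6/2 mice and 5.88 to 8.58 in wild-type mice. Of these markers 1 had an unadjusted p under 0.05 and 0 passed by limma. Among markers of other striatal cells, 2 of 3 for cholinergic interneurons, 2 of 5 for GABA interneurons and 4 of 7 for astrocytes fell. For oligodendrocytes 0 of 5 measured markers passed. The GABA interneuron mean differed by 0.02, with Pvalb at 0.52 and Calb2 at 0.58, and the astrocyte marker Gfap was at 0.42, none of which passed. All 6 microglia markers had negative differences (median -0.45), of which 5 had an unadjusted p under 0.05 and 0 passed by limma. The share of all genes with an unadjusted p under 0.05 was not computed. The microglia mean was 8.74 in wild-type mouse 49 and at most 8.37 in the other wild-type mice. The part of all these cell types in the results below was not tested. Because among R6/2 mice R62_86 alone shared the age of the wild-type mice, age and genotype could hardly be separated, and with age as a covariate 0.0289% of all probe sets passed. In that age model each difference is that of mouse R62_86 alone from the wild-type mean. With the cortex marker mean as a covariate 0.135% passed, and 0.899% passed when the 3 arrays highest in choroid plexus markers were left out (R62_107 and wild-type mice 47 and 66). Over all probe sets 2627 were higher and 2056 lower in R6/2 mice, but 1251 and 2565 after centring each array on 6 measured housekeeping genes. Of these 6, Hprt was itself higher in R6/2 mice (0.30, limma adjusted p 0.0175). The mean of the 6 differed by 0.07, so this centring lowers every difference by that amount.

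DARPP-32 transcript was reduced in every R6/2 mouse. Ppp1r1b (probe set 1451331_at, gene at chr11:98348406-98357796) had log2 values of 10.76, 11.08, 9.89, 10.98 and 10.45 in the R6/2 mice, against 12.11, 12.18, 12.42 and 12.60 in the wild-type mice. Every R6/2 mouse lay below every wild-type mouse, and mouse R62_105 was the lowest. The means were 10.63 ± 0.48 (SD, n = 5) in R6/2 mice and 12.33 ± 0.22 (SD, n = 4) in wild-type mice. Ppp1r1b fell by 1.70 ± 0.22 on the log2 scale (SE, limma adjusted p 0.00184), to 0.309 of the wild-type level. Mouse R62_86, of the same age in days as the wild-type mice, lay at -1.57 relative to their mean.

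The cortex marker mean was 6.97, 6.65, 7.32, 6.34 and 7.15 in the R6/2 mice, against 6.51, 6.14, 5.68 and 5.39 in the wild-type mice. It was highest in mouse R62_105, where Ppp1r1b was lowest, and lowest in wild-type mouse 66, where Ppp1r1b was highest. Wild-type mouse 46 had a higher cortex marker mean than mouse R62_107 and also a higher Ppp1r1b value. The cortex marker mean itself differed by 0.96 between the genotypes, and its part in the Ppp1r1b values was not tested. With that mean as a covariate the difference of Ppp1r1b was -1.01 ± 0.23 (SE, limma adjusted p 0.132), and with the 3 arrays highest in choroid plexus markers left out it was -1.72 (adjusted p 0.0630).

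Ppp1r1a, which encodes inhibitor-1, fell with little spread within either group. Probe set 1422605_at (gene at chr15:103530279-103538027) gave 9.15, 9.24, 8.96, 8.97 and 9.16 in the R6/2 mice, against 10.19, 10.25, 10.30 and 10.13 in the wild-type mice. Both groups were compact, and a distance of 0.89 lay between the highest R6/2 mouse and the lowest wild-type mouse. Means were 9.10 ± 0.13 (SD, n = 5) in R6/2 mice and 10.22 ± 0.07 (SD, n = 4) in wild-type mice. The transcript fell by 1.12 ± 0.08 on the log2 scale (SE, limma adjusted p 0.000128), to 0.460 of the wild-type level. With the cortex marker mean as a covariate the difference was -1.13 (adjusted p 0.0209), and with the 3 arrays highest in choroid plexus markers left out it was -1.12 (adjusted p 0.0318).

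Arpp19 had the lowest log2 difference of the 12 probe sets. Its gene lies at chr9:75037614-75060313, and its 3 probe sets share 1 source sequence in the annotation. Probe set 1422609_at gave 10.74, 10.24, 10.33, 10.60 and 10.52 in the R6/2 mice, against 12.20, 12.11, 12.48 and 12.22 in the wild-type mice. The groups were far apart, with mouse R62_86 the highest of its group and still a distance of 1.37 from the lowest wild-type mouse. This probe set averaged 10.48 ± 0.20 (SD, n = 5) in R6/2 mice and 12.25 ± 0.16 (SD, n = 4) in wild-type mice, and fell by 1.77 ± 0.11 (SE, limma adjusted p 0.000104), to 0.293 of the wild-type level.

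A second probe set, 1422608_at, lay between 8.88 and 9.36 in R6/2 mice and between 10.55 and 10.86 in wild-type mice. It fell by 1.55 ± 0.12 (SE, limma adjusted p 0.000207), to 0.341 of the wild-type level. Probe set 1450685_at gave 10.33, 9.72, 10.39, 10.13 and 10.31 in the R6/2 mice, against 10.64, 10.69, 10.73 and 10.79 in the wild-type mice. Here the groups lay closer together, without overlap, and mouse R62_95 was the lowest. The fall was 0.54 ± 0.13 (SE, limma adjusted p 0.0235), to 0.689 of the wild-type level, and the difference was of like size but did not pass without wild-type mouse 47 (-0.55, adjusted p 0.0574), 49 (-0.53, adjusted p 0.0501) or 66 (-0.51, adjusted p 0.0667).

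The Arpp19 probe sets differed in how much they changed. Set against 1422609_at in the same mouse, 1450685_at was -0.31 ± 0.24 (SD, n = 5) in R6/2 mice and -1.54 ± 0.15 (SD, n = 4) in wild-type mice. That is a difference of 1.23 (exact two-sided permutation p = 0.00794, adjusted 0.0111 over 7 such comparisons). The smallest p that 5 mice against 4 allow is 0.00794. The gap between 1422608_at and 1422609_at differed by 0.22 (exact permutation p = 0.0159, adjusted 0.0185). With the cortex marker mean as a covariate, 1422609_at gave -1.67 (adjusted p 0.0209) and 1422608_at -1.35 (adjusted p 0.0369), while 1450685_at gave -0.66 and did not pass (adjusted p 0.236).

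Ensa, the relative of Arpp19 in the Greatwall pathway, rose on 1 of its 2 probe sets. Whether probes of either gene also read the other's transcript was not tested. The gene lies at chr3:95624980-95632117. Probe set 1428620_at gave 9.51, 9.35, 9.67, 9.27 and 9.51 in the R6/2 mice, against 8.86, 8.80, 9.02 and 8.79 in the wild-type mice. All R6/2 mice exceeded all wild-type mice, by the least in mouse R62_107. Ensa rose by 0.59 ± 0.09 on this probe set (SE, limma adjusted p 0.00353), 1.51 times the wild-type level.

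Probe set 1423330_at gave 10.37, 10.34, 10.53, 10.29 and 10.36 in the R6/2 mice, against 10.17, 10.06, 10.21 and 10.16 in the wild-type mice. The groups again did not overlap, at a smaller distance. This probe set averaged 10.38 ± 0.09 (SD, n = 5) in R6/2 mice and 10.15 ± 0.06 (SD, n = 4) in wild-type mice, a difference of 0.23 ± 0.07 (SE, 95% interval 0.08 to 0.37) that did not pass over all probe sets (limma adjusted p 0.0528). It passed when 1 probe set per gene was tested (adjusted p 0.0379). With each mouse left out in turn it did not pass (adjusted p 0.0575 to 0.134). In the same mouse, 1428620_at minus 1423330_at was -0.92 ± 0.08 (SD, n = 5) in R6/2 mice and -1.28 ± 0.08 (SD, n = 4) in wild-type mice, a difference of 0.37 (exact permutation p = 0.00794, adjusted 0.0111). With the cortex marker mean as a covariate 1428620_at gave 0.43 (limma adjusted p 0.243) and 1423330_at 0.16 (adjusted p 0.610).

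**Figure D2:**
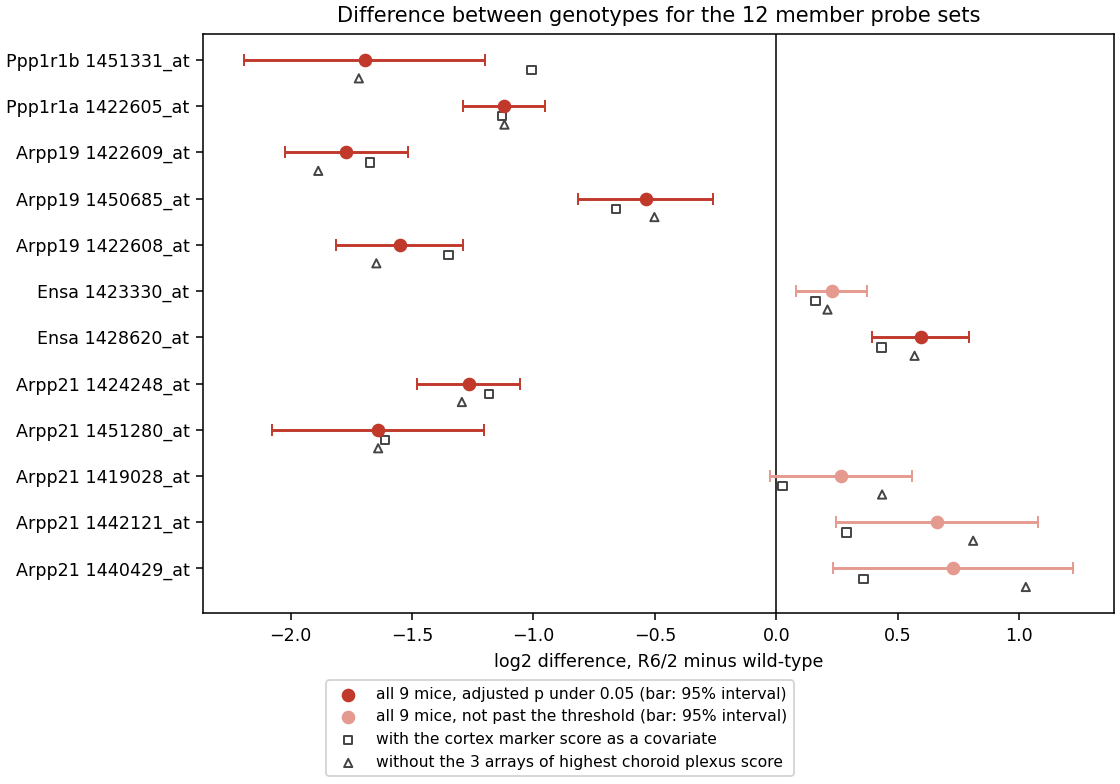
Log2 difference (R6/2 minus wild-type) of each member probe set from all 9 mice, with its 95% interval, beside the value with the cortex marker mean as a covariate (squares) and with the 3 arrays highest in choroid plexus markers left out (triangles). The 7 probe sets that were lower keep their sign in both, and the square of Ppp1r1b lies at -1.01 against -1.70 from all mice.

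Of the 5 Arpp21 probe sets, the pair made from the same source sequence in the annotation fell, and the other 3 gave positive differences. Probe set 1424248_at gave 11.79, 11.72, 11.50, 11.97 and 11.89 in the R6/2 mice, against 13.13, 13.05, 12.92 and 13.07 in the wild-type mice. A distance of 0.94 lay between the groups. It averaged 11.78 ± 0.18 (SD, n = 5) in R6/2 mice and 13.04 ± 0.09 (SD, n = 4) in wild-type mice and fell by 1.27 ± 0.10 (SE, limma adjusted p 0.000207), to 0.416 of the wild-type level.

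Its partner, 1451280_at, gave 10.93, 10.01, 10.50, 11.06 and 10.91 in the R6/2 mice, against 12.37, 12.35, 12.09 and 12.49 in the wild-type mice. Mouse R62_95 was the lowest, and the groups were apart. This probe set fell by 1.64 ± 0.20 (SE, limma adjusted p 0.00120), to 0.321 of the wild-type level. With the cortex marker mean as a covariate the difference was -1.18 for 1424248_at (adjusted p 0.0369) and -1.61 for 1451280_at (adjusted p 0.105).

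Probe set 1442121_at gave 8.58, 8.76, 8.75, 8.52 and 8.63 in the R6/2 mice, against 8.43, 8.18, 7.31 and 8.03 in the wild-type mice. The R6/2 mice were close together above all wild-type mice, whereas wild-type mouse 49 lay far below the rest of its group. The difference was 0.66 ± 0.19 (SE, 95% interval 0.24 to 1.07, limma adjusted p 0.0502). Without wild-type mouse 49 it was 0.43 and passed (adjusted p 0.0288), and without wild-type mouse 46 it was 0.81 and passed (adjusted p 0.0247). With each of the other mice left out in turn it did not pass (adjusted p 0.0736 to 0.107).

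Probe set 1440429_at, the dimmest of the 12, gave 6.68, 6.54, 6.90, 6.63 and 6.76 in the R6/2 mice, against 6.27, 6.32, 5.12 and 6.19 in the wild-type mice. The pattern was the same, with no overlap and mouse 49 far below. Its difference was 0.73 ± 0.22 (SE, 95% interval 0.23 to 1.22, limma adjusted p 0.0666), and 0.44 without wild-type mouse 49 (adjusted p 0.0159). It did not pass with any other mouse left out (adjusted p up to 0.138). The last one, 1419028_at, had R6/2 values of 8.78 to 9.22 that overlapped the wild-type values of 8.31 to 8.92, and differed by 0.27 ± 0.13 (SE, 95% interval -0.02 to 0.56, limma adjusted p 0.240), or by 0.13 without wild-type mouse 49 (adjusted p 0.463). Given the cortex marker mean as a covariate, the differences of these 3 probe sets were 0.03 for 1419028_at, 0.29 for 1442121_at and 0.36 for 1440429_at, and none of the 3 passed (adjusted p 0.743 to 0.978).

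The Arpp21 probe sets changed by different amounts within the same mice. Set against 1424248_at, the change in R6/2 mice was 1.53 for 1419028_at, 1.93 for 1442121_at and 1.99 for 1440429_at (each an exact permutation p = 0.00794, adjusted 0.0111). Each of these gaps holds the fall of 1424248_at by 1.27. On their own 1419028_at differed by 0.27, 1442121_at by 0.66 and 1440429_at by 0.73, and none passed by limma. Against 1424248_at, 1451280_at changed by -0.37 (exact permutation p = 0.0238, adjusted 0.0238). Without each wild-type mouse in turn it changed by -0.33 to -0.41 and did not pass (adjusted 0.0714 to 0.125). Without mouse R62_95 it was -0.22 and passed (adjusted 0.0286). Probe set 1442121_at relative to 1424248_at was -3.13 ± 0.27 (SD, n = 5) in R6/2 mice and -5.05 ± 0.40 (SD, n = 4) in wild-type mice, with no overlap. The mean over the 5 probe sets did not show this division, with a difference of -0.25 (limma adjusted p 0.216 over genes).

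**Figure D3:**
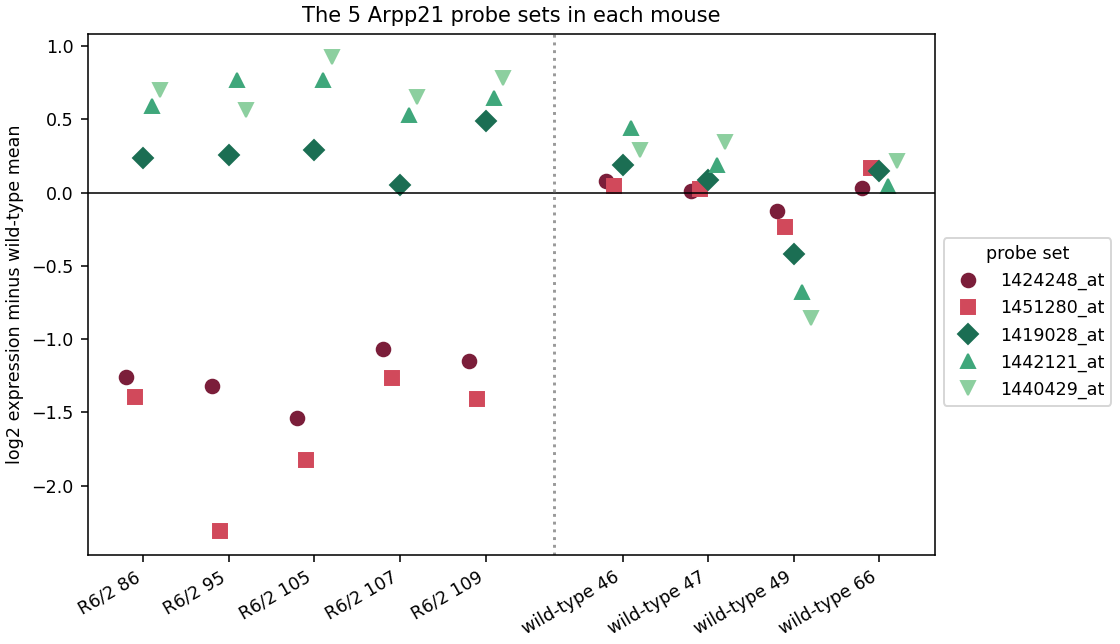
Log2 expression of the 5 Arpp21 probe sets in each mouse, R6/2 mice left of the dotted line and wild-type mice right of it, each relative to the wild-type mean of that probe set. In all 5 R6/2 mice the pair 1424248_at and 1451280_at lies below 0 and the other 3 above it, and in wild-type mouse 49 all 5 lie below 0.

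Members were then compared with each other, on the brightest probe set of each gene, over 10 pairs. The gap between 2 genes in the same mouse changed past the threshold in 6 pairs. All 4 pairs with Ensa were among them, at -1.92 for Ppp1r1b minus Ensa, -1.35 for Ppp1r1a minus Ensa, -2.00 for Arpp19 minus Ensa and 1.49 for Ensa minus Arpp21 (each an exact permutation p = 0.00794, adjusted 0.0159 over the pairs). Ensa itself differed by 0.23 on this probe set and did not pass by limma, so these gaps mainly hold the falls of the other genes. Arpp19 fell further than Ppp1r1a, which gave 0.65 for Ppp1r1a minus Arpp19 (adjusted exact permutation p 0.0159), and further than Arpp21, at -0.50 (adjusted 0.0265, and -0.39 with adjusted 0.0595 without wild-type mouse 49). Ppp1r1b minus Ppp1r1a was -0.57 and did not pass (exact permutation p = 0.0556, adjusted 0.0794, and -0.69 with adjusted 0.0408 without mouse R62_107), nor did Ppp1r1b minus Arpp21 (-0.43, adjusted 0.119), Ppp1r1a minus Arpp21 (0.14, adjusted 0.291) or Ppp1r1b minus Arpp19 (0.07, adjusted 0.841).

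Against the mean of the 13 spiny neuron markers in the same mouse, whose difference was -1.37, 4 of the 5 genes did not differ past the threshold. Ppp1r1b minus that mean was 0.98 ± 0.15 (SD, n = 5) in R6/2 mice and 1.30 ± 0.17 (SD, n = 4) in wild-type mice. This difference of -0.32 did not pass over the 5 genes (exact permutation p = 0.0317, adjusted 0.0794). Arpp19 gave -0.40 (adjusted 0.212), Ppp1r1a 0.25 (adjusted 0.317) and Arpp21 0.11 (adjusted 0.492), and these groups overlapped. Ensa minus the marker mean was higher by 1.60 in R6/2 mice, without overlap (exact permutation p = 0.00794, adjusted 0.0397), and by 1.41 to 1.71 with each mouse left out in turn. Most of this is the fall of the markers by 1.37, since Ensa itself differed by 0.23 and did not pass by limma. With 8 mice the smallest exact p is 0.0179 or 0.0286, so that a single gene cannot pass after adjustment over the 5, and those tests are void. None of the 4 tests that missed the threshold shows that a gene changed by the same amount as the markers.

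The genes with the most similar profile over the 9 mice were sought among 11262 genes above the median brightness, by Pearson's correlation, as a description. All 9 mice entered, so each value spans both genotypes and rests on the same arrays. For Ppp1r1b they were Rasd2, a small G protein of striatal neurons (r = 0.996), the dopamine receptor gene Drd2 (0.994) and Tesc (0.994). For Ppp1r1a they were Ttl (0.990), the inward rectifier gene Kcnj4 (0.990) and Pradc1 (0.987), and for Arpp19 they were Acvr1c (0.992), Fcgr2b (0.991) and Pdp1 (0.990). Ensa was followed most closely by Appbp2 (0.970), Pgap4 (0.966) and 4922502B01Rik (0.964).

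For Arpp21 the nearest genes differed between probe sets. Arel1 (0.994), Tiam2 (0.991) and the kainate receptor gene Grik2 (0.991) were nearest to 1424248_at, and the calcium pump gene Atp2a2 (0.991), Zfp365 (0.989) and Tomm70a (0.988) to 1451280_at. Unc13b, a synaptic vesicle priming gene (0.997), Miat, a long noncoding RNA (0.993), and Hivep3 (0.990) were nearest to 1442121_at. Herc2 (0.994), the kinesin gene Kif1a (0.987) and Wdfy3 (0.987) were nearest to 1440429_at, and Ttc7b (0.974), Lasp1 (0.971) and Arhgap21 (0.963) to 1419028_at.

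The genes that act on DARPP-32 and its relatives were described by lists, on the brightest probe set of each gene, of which 7.36% were higher and 6.3% lower among all genes, with a median difference of -0.02. Upstream, 5 of 7 measured genes for receptors, G proteins and adenylyl cyclase fell and 1 rose, with a median of -1.06. Drd1, Drd2, Adcy5 and Gnal are also in the spiny neuron or pathway marker lists, as are Pde10a, Pde1b and Ptpn5 of the lists below. Their falls are therefore not separate from the fall of those markers. The dopamine receptor gene Drd1 fell by 1.45 ± 0.16 (SE, adjusted p 0.000871), Adcy5, the main striatal adenylyl cyclase, by 1.49 ± 0.20, and Drd2, whose receptor lowers cyclic AMP, by 1.58 ± 0.25. Gnas, the stimulatory G protein subunit found in most tissues, rose by 0.60 ± 0.10 (adjusted p 0.00676).

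Among 13 genes of protein kinase A, its anchoring protein Akap5 and phosphodiesterases, 7 fell and 4 rose, at a median of -0.43. The kinase subunit genes mostly went the other way from that median. Prkar2a (0.68), Prkar1b (0.53) and Prkacb (0.28) rose and Prkar2b (-0.53) fell, while Prkar1a (0.27) and Prkaca (0.16) did not pass. The phosphodiesterase genes Pde10a (-1.48 ± 0.18, SE) and Pde7b fell, the second of them averaging 10.50 ± 0.26 (SD, n = 5) in R6/2 mice and 11.50 ± 0.03 (SD, n = 4) in wild-type mice, and Pde4d, another cyclic AMP phosphodiesterase, rose by 0.59 ± 0.07 (limma adjusted p 0.000887). Of 9 measured genes for other kinases of DARPP-32, 1 fell and 1 rose (median -0.01). Cdk5r2, an activator of the kinase Cdk5, fell by 0.62 ± 0.11 (adjusted p 0.00688) and Csnk1d, of casein kinase 1, rose by 0.33 ± 0.07 (adjusted p 0.0135), while Csnk2a2 gave 0.32 ± 0.09 (adjusted p 0.0517).

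On the phosphatase side, 6 of 13 measured genes for protein phosphatase 1 and its regulators fell, at a median of -0.10. Ppp1ca, a catalytic subunit, was 11.23 ± 0.12 (SD, n = 5) in R6/2 mice and 12.03 ± 0.13 (SD, n = 4) in wild-type mice, a fall of 0.80 ± 0.08 (SE, limma adjusted p 0.000755). Phactr1, a binding partner of the phosphatase, fell by 0.93 ± 0.12 and the regulatory subunit gene Ppp1r7 by 0.55 ± 0.08, while Ppp1cc, another catalytic subunit, gave 0.22 ± 0.08 (adjusted p 0.104).

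Of 15 genes for the Greatwall kinase and protein phosphatase 2A, 4 fell and 3 rose (median -0.04). Ppp2r2a (-0.60 ± 0.09, SE) and Ppp2r2d (-0.31 ± 0.08), regulatory subunits of the class that the Ensa and Arpp19 products act on, fell. Ppp2r5e, a regulatory subunit of another class, rose by 0.33 ± 0.08 (limma adjusted p 0.0286). Neither class moved as a whole. In the first, Ppp2r2c fell (-0.28, adjusted p 0.0460) and Ppp2r2b did not pass (-0.03, adjusted p 0.897). In the other, Ppp2r5d fell (-0.40, adjusted p 0.0326), and Ppp2r5a, Ppp2r5b and Ppp2r5c did not pass. Of 6 measured calcineurin and calmodulin genes 3 fell (median -0.40), namely Pcp4, which binds calmodulin (-0.88 ± 0.10), Ppp3ca, a catalytic subunit of the calcineurin that dephosphorylates DARPP-32 (-0.63 ± 0.08), and Ppp3r1 (-0.43 ± 0.08). Ppp3cc gave 0.34 ± 0.10 (adjusted p 0.0665).

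None of the 3 R3H domain relatives of Arpp21 passed by limma. R3hdm2 gave 0.31 ± 0.11 (SE, adjusted p 0.0914), R3hdm4 -0.20 ± 0.09 (adjusted p 0.224) and R3hdm1, the host of Mir128-1, 0.08 ± 0.12 (adjusted p 0.715). Of 5 measured genes downstream of DARPP-32, Ptpn5, a striatal tyrosine phosphatase, fell by 1.06 ± 0.17 (adjusted p 0.00495), and Creb1, a transcription factor that protein kinase A activates, rose by 0.50 ± 0.06 (adjusted p 0.000936). Fos, an activity-induced gene, gave -0.87 ± 0.31 (adjusted p 0.104).

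With the cortex marker mean as a covariate, 0 of the 71 measured entries of these 8 lists passed by limma, against 0.135% of all probe sets. In that model 26 entries had an unadjusted p under 0.05. With age as a covariate 0 of the 71 passed by limma, and 31 had an unadjusted p under 0.05. The age model sets mouse R62_86 alone against the wild-type mice, as stated above. With the 3 arrays highest in choroid plexus markers left out, 5 entries fell, and 42 had an unadjusted p under 0.05, while 0.899% of all probe sets passed by limma. The share of all genes with an unadjusted p under 0.05 was not computed in these settings, so the unadjusted counts are no result about the lists. After centring on housekeeping genes, 5 entries were higher and 27 lower. The counts of all probe sets in that setting are given above. The Greatwall and protein phosphatase 2A list and the list of other kinases held no higher one. The directions of Ppp2r5e and Csnk1d given above were thus not called there. The protein kinase A list held 3 higher ones, against 4 without this centring.

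**Figure D4:**
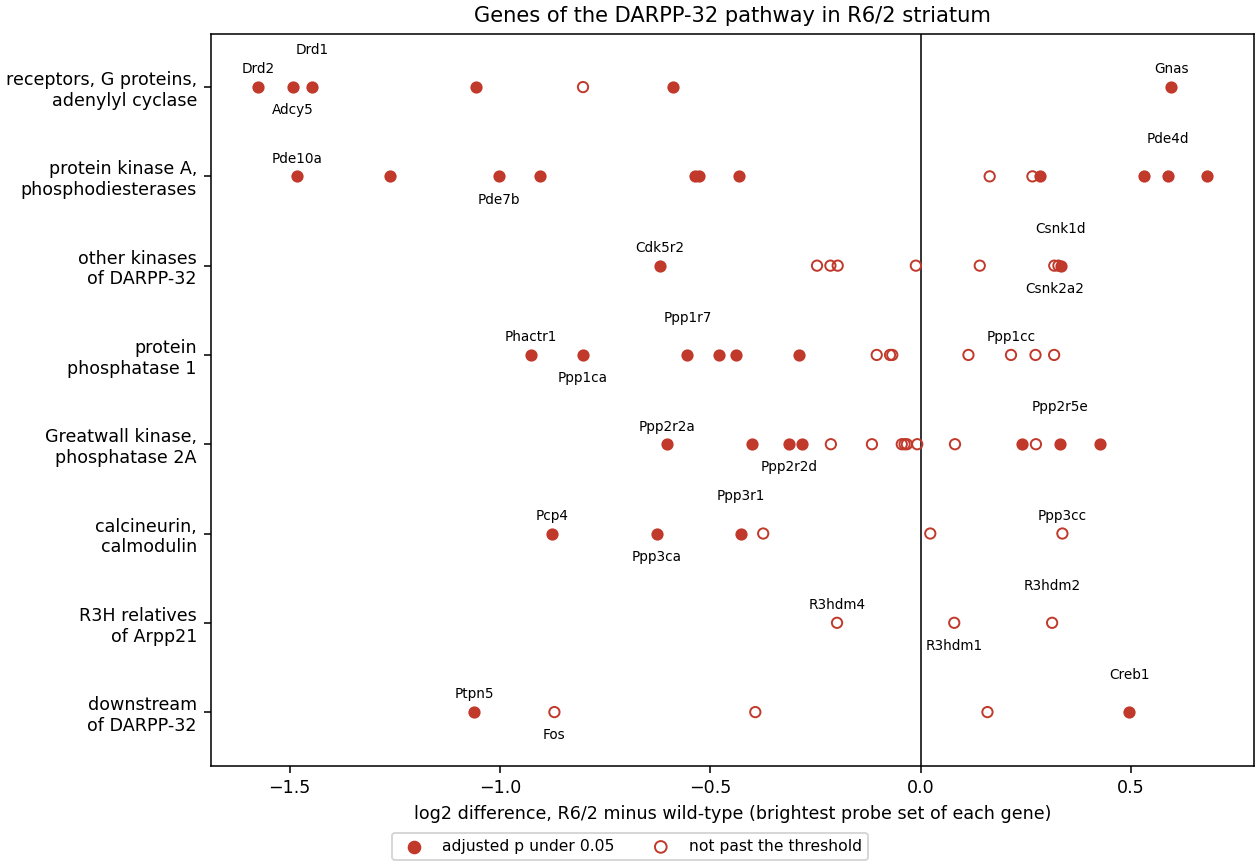
Log2 difference (R6/2 minus wild-type) of the genes of 8 pathway lists, with 1 point per gene, filled where the limma adjusted p was under 0.05. A selection of the genes named in the text is labelled. Drd2 (-1.58), Adcy5 (-1.49) and Pde10a (-1.48) lie furthest to the left, and Gnas (0.60) lies on the right.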

How the data were processed

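The values were log2 expression per probe set and array as deposited by the authors, who used RMA (affy), as the submitters' processing notes state. RMA removes background, equalises the distributions of the arrays and combines the probes of a set, so a difference is relative to the rest of the array. RNA was labelled during in vitro transcription, per the labels' protocols. The version of affy, and the set of arrays normalized at once, were not stated in these sources. Of 45101 probe sets, 64 manufacturer controls were left out. Among the 45037 tested, 34945 named 1 gene, 932 several and 9160 none. Symbols were updated for 34741 of those naming 1 gene, through gene identifiers, with the RefSeq gene table of GRCm38.p6, which also gave gene positions. Correlations between arrays were 0.979 to 0.995, and at most 3.93% of values were identical in 2 arrays, so each was counted as 1 replicate. The number of arrays limits the precision.

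Genotypes were compared with limma 3.58.1 (lmFit, eBayes) in R 4.3.3. The model held genotype alone, with two-sided tests, Benjamini-Hochberg adjustment and a threshold of 0.05. Single differences were tested by exact permutation of the 9 mice (Python 3.11.15). Both were tested on simulated data. The members and lists were chosen with earlier results of these data known. All member probe sets are named, with up to 3 genes of smallest p per list and the best supported one of opposite direction, and the 3 genes of most similar profile. Further list genes are named where they recur in a marker list, share a class with a named gene or differ from the rest of their list. The 19 lists held 156 entries, of which 140 were measured. Alternatives covered probe set choice, scaling, variance model, covariates and each mouse left out. Leaving out the 3 arrays highest in choroid plexus markers was chosen after seeing the data. Promoter and microRNA sequences came from RefSeq (GRCm38.p6), and 12 windows matched 3 of the 5 genes. Figures were drawn with matplotlib 3.10.9.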

Additional observations from a re-analysis of the deposited data

Results flagged for a closer look

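Of 44 sets of values screened (12 member probe sets and 10 marker lists in each group), 3 were flagged, and chance alone flags about 1 in 20. Each flag was for wild-type mouse 49, which enters only the wild-type sets. The flagged Arpp21 probe sets were correlated with each other over the 9 mice (Pearson r 0.89), so the flags are not independent. Arpp21 1419028_at was 8.31 in mouse 49, with the other wild-type mice between 8.81 and 8.92. Arpp21 1440429_at was 5.12, with the others between 6.19 and 6.32. The mean of the microglia markers was 8.74 in the same mouse and at most 8.37 in the other wild-type mice.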

How the results depend on the processing

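Of 23 alternatives, Ppp1r1b stayed lower past the threshold in 20, Ppp1r1a in 22, and Arpp19 (1422609_at) in 23. Ppp1r1b did not pass with age (-1.57) or the cortex marker mean (-1.01) as a covariate, or with the 3 arrays highest in choroid plexus markers left out (-1.72). With age as a covariate Ppp1r1a was -1.07 and Arpp21 1424248_at -1.26, and neither passed. Nor did Arpp21 as the mean of its probe sets (-0.25). The values with age are the differences of mouse R62_86 alone from the wild-type mean. Ensa 1423330_at passed as the brightest probe set per gene (0.23), as the mean of its probe sets (0.41) and among the brighter 50% of probe sets (0.23). It also passed after quantile normalization (0.25) and with array weights (0.25). In the other 18 alternatives it did not pass. These include each mouse left out in turn (limma adjusted p 0.0575 to 0.134) and centring on housekeeping genes (0.16, adjusted p 0.211). The counts of all probe sets, higher then lower in R6/2 mice, were 741 and 845 at a threshold of 0.01, 1392 and 1193 without moderation, 3 and 10 with age, 11 and 50 with the cortex marker mean and 1376 and 1301 with the choroid plexus mean as covariates. They were 152 and 253 with the 3 arrays left out. With 1 value per gene and adjustment over genes alone, they were 1688 and 1378 on the brightest probe set, and 1330 and 1303 on the mean of the probe sets. After housekeeping centring 1251 were higher. With each mouse left out in turn the ranges were 1540 to 3005 higher and 1352 to 2202 lower, with the lowest counts without wild-type mouse 47 (higher) and 66 (lower). Member probe sets called higher numbered 4 among the brighter 50% and with array weights, 2 after quantile normalization, median centring or with trend and robust moderation, and 0 with age or the cortex mean as a covariate or without the 3 arrays. With each mouse left out they numbered 1 to 3. Members called lower numbered 1 with age, 4 with the cortex mean and 4 without the 3 arrays. Leaving out single mice gave -0.10 to 0.22 for Ppp1r1b minus Arpp19, reversed without R62_95, and the count of genes that differed from the spiny neuron markers was 0, which 8 mice impose on a single gene adjusted over 5 and which says nothing about stability. The causes of the other shifts were not tested. No paired analysis was possible because the groups share no replicate numbers.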
